A study of Mus musculus with 8 samples.

Results

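Macrophages of mice given interferon beta (IFNb) before lipopolysaccharide (LPS) were compared with macrophages of mice given LPS alone. The comparison sets 4 of the 8 libraries of the series against each other, chosen by their labels: LPS+IFNb replicates 1 and 2, and LPS replicates 1 and 2. The LPS+IFNb mice received IFNb for 4 h and then LPS for 4 h, so their cells were taken 8 h after IFNb. The LPS mice received LPS for 4 h. The other 4 libraries, 2 from mice given IFNb for 4 h and 2 from mice given saline for 4 h, show what IFNb did without LPS. They also enter the shared estimate of spread behind the p-values of the main fit. Mice of all 4 groups were 7-week-old C57BL6 males with no altered gene named in the labels, and they were stimulated in the peritoneal cavity. The series title frames the question as the effect of IFNb priming on the inflammatory cytokines that LPS drives. None of the 4 groups received IFNb followed by saline, so the effect of IFNb and that of the longer time cannot be told apart. Whether both libraries of a group stem from different animals is not labelled. The p-values therefore reflect how far these libraries spread, and that spread may be technical.

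LPS, the outer-membrane glycolipid of Gram-negative bacteria, is bound by CD14 and by the MD-2 and TLR4 complex on macrophages. The adaptor MyD88 then leads to NF-kB and MAP kinases, which switch on cytokine and chemokine genes, and the adaptor TRIF leads to IRF3, which switches on the gene for IFNb itself. IFNb binds the receptor made of IFNAR1 and IFNAR2, and the kinases JAK1 and TYK2 then activate ISGF3, a transcription factor complex that binds a DNA element called the ISRE in the promoters of interferon-stimulated genes. In macrophages, type I interferon is known both for antiviral and antimicrobial gene products and for raising IL-10 and restraining IL-1 beta.

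Levels are given in TPM, the abundance of a transcript as a length-corrected share of its library, for both libraries of a group in order of replicate number. Differences are those of log2(TPM + 1) ± SE, LPS+IFNb minus LPS, from limma. A gene is said to have risen or fallen where the p adjusted over the 13009 genes tested was under 0.05. Every gene described below as risen or fallen had both LPS+IFNb libraries on the same side of both LPS libraries.

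The promoters of 4 risen genes show what the ISRE looks like, and that of a fallen gene is set beside them. Each line gives the 250 bases before the start of the gene, from RefSeq (GRCm38.p6), 5′ to 3′ on the strand of the gene. In the first 4 the capitals mark the ISRE as searched here, that is TTTC, any 2 bases and again TTTC on either strand, overlapping matches included. In Cxcl3 they mark a kappa-B sequence of the kind that NF-kB binds, that is GGG, any 3 bases and TTCC on either strand. Ifit1bl1 and Cxcl3 were taken as the risen gene with an ISRE and the fallen gene with the largest differences among the genes named by rule. Gbp2, Gbp3 and Isg15, and the kappa-B sequence to mark, were chosen after their values were seen.
Ifit1bl1: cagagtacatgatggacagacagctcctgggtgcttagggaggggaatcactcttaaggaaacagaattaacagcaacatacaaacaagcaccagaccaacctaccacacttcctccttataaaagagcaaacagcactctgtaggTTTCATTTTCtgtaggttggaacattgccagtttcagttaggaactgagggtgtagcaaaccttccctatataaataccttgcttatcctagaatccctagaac
Gbp2: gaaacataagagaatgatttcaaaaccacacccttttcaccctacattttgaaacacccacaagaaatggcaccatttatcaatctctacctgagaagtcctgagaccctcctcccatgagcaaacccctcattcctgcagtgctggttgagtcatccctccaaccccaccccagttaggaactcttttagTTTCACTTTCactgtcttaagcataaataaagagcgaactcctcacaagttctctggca
Gbp3: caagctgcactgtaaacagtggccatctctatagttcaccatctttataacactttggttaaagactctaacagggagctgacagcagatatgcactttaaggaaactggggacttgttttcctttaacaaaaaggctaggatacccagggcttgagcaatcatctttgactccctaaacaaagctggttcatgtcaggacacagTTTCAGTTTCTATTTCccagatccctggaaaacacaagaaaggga
Isg15: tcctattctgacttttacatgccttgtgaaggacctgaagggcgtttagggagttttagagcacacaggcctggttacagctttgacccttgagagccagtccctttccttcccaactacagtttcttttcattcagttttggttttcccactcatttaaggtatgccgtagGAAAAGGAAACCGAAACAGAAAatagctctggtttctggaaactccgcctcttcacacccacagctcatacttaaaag
Cxcl3: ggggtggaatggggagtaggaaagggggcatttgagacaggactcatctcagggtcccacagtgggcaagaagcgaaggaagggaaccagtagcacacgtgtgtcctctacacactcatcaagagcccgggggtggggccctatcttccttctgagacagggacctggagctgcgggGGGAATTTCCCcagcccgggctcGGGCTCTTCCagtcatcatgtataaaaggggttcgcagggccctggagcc

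These windows lie at chr19:34601969-34602218 on the minus strand, chr3:142620413-142620662 and chr3:142559794-142560043 on the plus strand, chr4:156200819-156201068 on the minus strand and chr5:90785851-90786100 on the plus strand. The match begins 104 bases before the start in Ifit1bl1 and 59 bases before it in Gbp2. Gbp3 holds 2 overlapping matches, 45 and 39 bases before the start. Isg15 holds 3 overlapping matches read on the opposite strand, the farthest at 78 and the nearest at 66 bases. Cxcl3 holds 3 kappa-B matches between 73 and 50 bases before the start, of which 2 overlap on opposite strands. A match describes the letters of a window and is not evidence of binding.

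The libraries held the defining markers of macrophages. Adgre1, Csf1r and Cd68 were above 10 TPM in each of the 4 libraries. Markers of large peritoneal macrophages summed to 2349 and 2195 TPM with IFNb before LPS, against 2988 and 3301 TPM with LPS alone, and those of monocytes and small peritoneal macrophages to 2467 and 2699.7 TPM with IFNb before LPS, against 1275 and 1577 TPM with LPS alone. The second sum held Ms4a4c, with 1170.0 and 1513 TPM with IFNb before LPS, against 173 and 83.7 TPM with LPS alone. Without this gene, left out after its values were seen, it was 1297 and 1187 TPM with IFNb before LPS, against 1101 and 1493 TPM with LPS alone, and the groups overlapped. In the first sum, Cd9 had 753 and 713 TPM with IFNb before LPS, against 1098 and 1107 TPM with LPS alone. F10 had 459 and 428 TPM, against 618 and 719 TPM, and Serpinb2 173 and 94.3 TPM, against 382 and 516 TPM. With saline, F10 was at 149 and 197 TPM and Serpinb2 at 7.38 and 12.2 TPM. Of 22 members tested, 2 rose and 4 fell. In LPS+IFNb libraries, neutrophil markers summed to 547 and 423 TPM, B cell markers to 209 and 216 TPM, and T and NK cell markers to 344 and 409 TPM. In LPS libraries the sums were 357 and 559 TPM for neutrophils, 214 and 220.0 TPM for B cells, and 321 and 259 TPM for T and NK cells. The neutrophil sum held Lcn2, with 203 and 151 TPM with IFNb before LPS, against 87.3 and 169.6 TPM with LPS alone. With saline Lcn2 was at 2.09 and 2.51 TPM. The T and NK cell sum was mostly Il7r, with 235 and 274 TPM with IFNb before LPS, against 267 and 215 TPM with LPS alone. The sums are therefore no measure of the number of neutrophils or of T and NK cells. Mitochondrially encoded transcripts took 2.59% and 2.55% of TPM in LPS+IFNb libraries, against 3.43% and 3.16% in LPS libraries. In bulk RNA, fewer cells of a type and less RNA per cell cannot be told apart, and the part of cell makeup in the results below was not tested.

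With IFNb before LPS fewer genes were higher than lower, but most of the largest changes were rises. Of 13009 genes, 1400 (10.8%) rose and 3129 (24.1%) fell, so that 34.8% were called in either direction. A change of at least 2-fold was found in 660 risen and 662 fallen genes, of at least 4-fold in 162 risen and 34 fallen genes, and of at least 8-fold in 40 risen and 4 fallen genes. For comparison, IFNb alone against saline raised 1697 genes (13.04%) and lowered 5020 (38.6%), and LPS alone against saline raised 1664 (12.8%) and lowered 5368 (41.3%).

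The excess of falls depends on the scaling. Risen genes took 27.6% and 28.1% of all TPM in LPS+IFNb libraries, against 13.2% and 12.5% in LPS libraries, and fallen genes 25.6% and 25.2%, against 39.1% and 38.6%. TPM sums to the same total in each library, and the median difference over all genes was -0.22 as deposited. Median-ratio scaling moved that median by 0.20, to -0.02, and gave 1869 rises and 1288 falls, and upper-quartile scaling gave 1664 and 2076. Without any 1 of the 4 libraries there were 968 to 1049 rises and 1674 to 1924 falls. Calls that ended under another scaling are named beside their genes. A count of a gene list is followed by its value under another scaling, or by its range with each of the 4 libraries left out in turn ("without 1 library"), where that moved it by more than 1.5-fold. Each such count stands beside the 10.8% of all genes that rose and the 24.1% that fell.

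**Figure D1:**
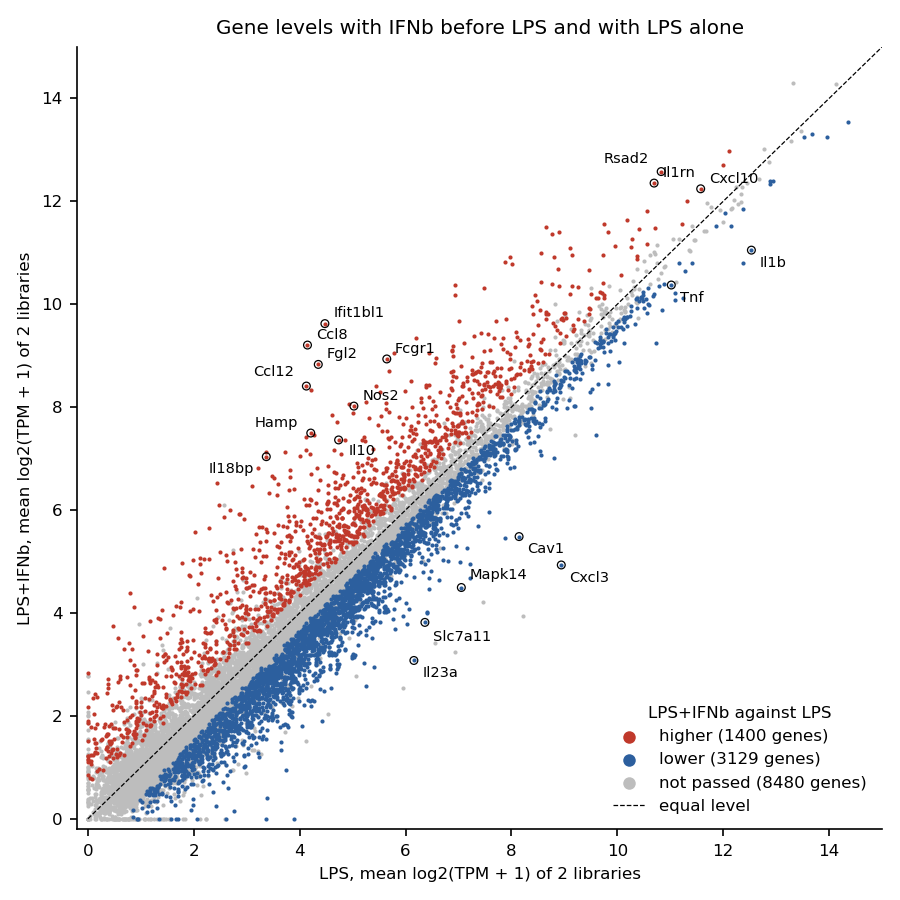
Mean log2(TPM + 1) of the 2 LPS+IFNb libraries (vertical axis) and of the 2 LPS libraries (horizontal axis) for the 13009 genes tested, coloured by call, with the line of equal level dashed and named genes circled. Rises reach farther from the line than falls, with 162 rises and 34 falls of at least 4-fold.

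Rises and falls are ranked by size here among genes whose log2(TPM + 1) averaged 3 or more in the 4 libraries, without predicted genes, pseudogenes, histone genes and antigen receptor segments. Genes outside these limits can have larger differences. The largest of these rises were those of an interferon-stimulated gene, a chemokine and an immunoregulatory protein. Ifit1bl1, an IFIT-family gene on chromosome 19 (chr19:34592891-34601956, GRCm38), had 784 and 792 TPM in LPS+IFNb macrophages, against 26.2 and 17.2 TPM in LPS macrophages (5.15 ± 0.17, adjusted p = 3.81e-05). Ccl8, a monocyte-attracting chemokine gene on chromosome 11, had 563 and 618 TPM with IFNb before LPS, against 35.4 and 7.63 TPM with LPS alone (5.06 ± 0.77, adjusted p = 0.00392). The LPS libraries differed several-fold from each other for Ccl8, and both lay far below the LPS+IFNb libraries. Fgl2, which encodes a fibrinogen-like protein with prothrombinase and immunosuppressive activity, had 426 and 485 TPM in LPS+IFNb macrophages, against 21.4 and 17.6 TPM in LPS macrophages (4.48 ± 0.14, adjusted p = 3.31e-05). Its 4 libraries fell into clearly separate pairs.

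Ccl12, a further monocyte-attracting chemokine, had 377 and 305 TPM with IFNb before LPS, against 15.05 and 18.02 TPM with LPS alone (4.28 ± 0.16, adjusted p = 3.92e-05). Il18bp, the secreted protein that binds and neutralises IL-18, had 126 and 135 TPM with IFNb before LPS, against 10.2 and 8.56 TPM with LPS alone (3.67 ± 0.17, adjusted p = 7.67e-05). Its LPS libraries were near the saline level of 11.2 and 7.75 TPM. The remaining 7 of the 12 largest rises at this level were Iigp1, an interferon-induced GTPase (4.12 ± 0.12), Lipg, an endothelial lipase (4.09 ± 0.28), Ifi44, an interferon-stimulated gene (3.76 ± 0.23), Gadd45g, a stress-induced growth arrest gene (3.60 ± 0.26), Tmem171, a membrane protein (3.54 ± 0.28), Ms4a4c, a membrane protein of monocytes (3.45 ± 0.37), and Gnb4, a G protein beta subunit (3.38 ± 0.18).

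Among genes at this level, the largest falls were those of a neutrophil chemokine and of an IL-23 subunit. Cxcl3 (chr5:90786103-90789600, GRCm38, chromosome 5) had 40.2 and 21.6 TPM in LPS+IFNb macrophages, against 493 and 488 TPM in LPS macrophages (-4.01 ± 0.26, adjusted p = 0.000196). Il23a, the p19 subunit of IL-23, had 8.198 and 6.75 TPM with IFNb before LPS, against 86.4 and 57.4 TPM with LPS alone (-3.08 ± 0.23, adjusted p = 0.000315). In both genes the LPS+IFNb libraries stayed above the saline libraries, which held 1.23 and 1.2002 TPM of Cxcl3 and 0 and 0.0855 TPM of Il23a. Cav1, the coat protein of caveolae, had 39.5 and 48.5 TPM with IFNb before LPS, against 311 and 256 TPM with LPS alone (-2.66 ± 0.20, adjusted p = 0.000335). Mapk14, the gene of the p38 alpha kinase that works downstream of TLR4, had 20.2 and 23.02 TPM with IFNb before LPS, against 138 and 126 TPM with LPS alone (-2.56 ± 0.13, adjusted p = 9.94e-05). With IFNb alone it was at 18.1 and 16.6 TPM, against 49.7 and 60.4 TPM with saline, so it was lower after IFNb whether LPS was given or not.

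Slc7a11, the cystine importer, had 12.7 and 13.5 TPM with IFNb before LPS, against 88.2 and 75.2 TPM with LPS alone (-2.55 ± 0.21, adjusted p = 0.000415). Hvcn1, the voltage-gated proton channel of phagocytes, had 23.3 and 26.1 TPM with IFNb before LPS, against 158 and 138 TPM with LPS alone (-2.54 ± 0.12, adjusted p = 7.98e-05). The remaining 6 of the 12 largest falls at this level were those of Plet1, a surface protein (-2.52 ± 0.27), Mmd, a membrane protein of macrophage differentiation (-2.45 ± 0.12), Olr1, the oxidised-LDL receptor LOX-1 (-2.42 ± 0.23), Clec5a, a C-type lectin of myeloid cells (-2.40 ± 0.23), Il12b, the p40 subunit of IL-12 and IL-23 (-2.40 ± 0.64), and Asap1, a regulator of ARF GTPases (-2.26 ± 0.18). The difference of Il12b was -1.47 without LPS+IFNb replicate 1 (adjusted p = 0.0964) and -1.78 without LPS replicate 1 (adjusted p = 0.139) and did not pass there, and its adjusted p over the alternatives ran from 0.012 to 0.139.

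Interferon-stimulated genes were the list with the most rises. Of 75 antiviral interferon-stimulated genes tested, 59 rose and 1 (0 with either other scaling) fell, with a median difference of 1.14, against -0.22 over all genes. LPS alone already raised these genes strongly, so the comparison shows what IFNb added to that level. Rsad2, the antiviral enzyme viperin, had 6131 and 6102 TPM in LPS+IFNb macrophages, against 1991 and 1659.9 TPM in LPS macrophages (1.75 ± 0.10, adjusted p = 0.000123). Isg15, the ubiquitin-like modifier, had 3338 and 3023 TPM with IFNb before LPS, against 1113 and 1213 TPM with LPS alone (1.45 ± 0.20, adjusted p = 0.00254). Samhd1, which degrades deoxynucleotides, had 2547 and 2727 TPM with IFNb before LPS, against 447 and 423 TPM with LPS alone (2.60 ± 0.09, adjusted p = 3.89e-05). All 3 were high in the LPS libraries and several-fold higher in the LPS+IFNb libraries.

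Ifit2, an RNA-binding translation inhibitor, had 2997 and 2836 TPM with IFNb before LPS, against 546 and 292 TPM with LPS alone (2.87 ± 0.28, adjusted p = 0.000829). Cmpk2, a mitochondrial nucleotide kinase next to Rsad2 in the genome, had 1998 and 1876 TPM with IFNb before LPS, against 466 and 426 TPM with LPS alone (2.12 ± 0.09, adjusted p = 6.42e-05). Isg20, an RNA exonuclease, had 547 and 518 TPM with IFNb before LPS, against 49.6 and 58.1 TPM with LPS alone (3.29 ± 0.11, adjusted p = 3.81e-05). Large rises were also found in Epsti1 (2.84 ± 0.08), Phf11b (2.67 ± 0.10), the nucleic acid sensor Zbp1 (2.24 ± 0.10), Herc6 (1.95 ± 0.07), which attaches Isg15 in the mouse, Usp18 (1.68 ± 0.10), which removes Isg15 and restrains the interferon receptor, and the virus-tethering protein Bst2 (1.81 ± 0.10). Smaller differences were those of Ifit1 and Mx1. Ifit1 had 2608 and 2039 TPM with IFNb before LPS, against 1518 and 1487 TPM with LPS alone (0.62 ± 0.15, adjusted p = 0.0225). Mx1, an antiviral GTPase, had 1049.6 and 1171 TPM with IFNb before LPS, against 786 and 755 TPM with LPS alone (0.52 ± 0.11, adjusted p = 0.0129). The difference of Ifit1 was 0.44 without LPS+IFNb replicate 1 (adjusted p = 0.11), 0.63 without LPS replicate 1 (adjusted p = 0.0832) and 0.60 without LPS replicate 2 (adjusted p = 0.0937) and did not pass there, and its adjusted p over the alternatives ran from 0.00931 to 0.11. The difference of Mx1 was 0.45 without LPS+IFNb replicate 2 (adjusted p = 0.0727), 0.55 without LPS replicate 1 (adjusted p = 0.0517) and 0.496 without LPS replicate 2 (adjusted p = 0.0678) and did not pass there, and its adjusted p over the alternatives ran from 0.00214 to 0.0727. The fallen member was Ifi27 (-0.52 ± 0.10, adjusted p = 0.00776), at -0.26 with median-ratio scaling and -0.39 with upper-quartile scaling, under which it did not pass.

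Every guanylate-binding protein and immunity-related GTPase tested rose. These 19 genes encode interferon-induced GTPases that attack the vacuoles of intracellular bacteria and parasites, and their median difference was 1.75. Gbp2, whose promoter is shown above, had 2009 and 1869 TPM in LPS+IFNb macrophages, against 249 and 254 TPM in LPS macrophages (2.94 ± 0.07, adjusted p = 2.58e-05). Gbp3 had 704 and 672 TPM with IFNb before LPS, against 192 and 183 TPM with LPS alone (1.87 ± 0.15, adjusted p = 0.000369). The smallest rise was that of Gbp5, a promoter of inflammasome assembly, with 934 and 1012 TPM with IFNb before LPS, against 714 and 695 TPM with LPS alone (0.46 ± 0.08, adjusted p = 0.00497). Gbp9 (3.01 ± 0.09), Gbp4 (2.91 ± 0.16), Gbp7 (1.75 ± 0.08), Ifi47 (1.74 ± 0.09) and Irgm1 (1.21 ± 0.09) lay between these and Iigp1. GTPases of these families are close paralogs, and reads shared between them were divided by the authors' pseudoalignment.

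Interferon signalling genes rose unevenly. Of 27 receptors, kinases, STATs and IRFs tested, 9 rose and 4 (2 without 1 library, 2 with either other scaling) fell. Ifnb1, the gene of IFNb itself, had 158 and 59.5 TPM in LPS+IFNb macrophages, against 10.9 and 10.01 TPM in LPS macrophages (3.10 ± 0.40, adjusted p = 0.00224), and with IFNb alone it was at 0.229 and 0.101 TPM. The LPS+IFNb libraries differed over 2-fold from each other, and both lay above the LPS libraries. Irf7, the factor that amplifies interferon production, had 2597 and 2819 TPM with IFNb before LPS, against 473 and 477 TPM with LPS alone (2.51 ± 0.25, adjusted p = 0.000891). Irf8, a lineage factor of monocytes and macrophages, had 311 and 472 TPM with IFNb before LPS, against 146 and 102 TPM with LPS alone (1.64 ± 0.25, adjusted p = 0.00401). Stat3, which relays IL-10, had 266 and 316 TPM with IFNb before LPS, against 118 and 139 TPM with LPS alone (1.17 ± 0.17, adjusted p = 0.00335). Irf2 had 77.6 and 78.5 TPM with IFNb before LPS, against 36.2 and 38.9 TPM with LPS alone (1.04 ± 0.14, adjusted p = 0.00243). Batf2 also rose (1.66 ± 0.09). Ifngr1, the ligand-binding chain of the interferon gamma receptor, fell (-1.44 ± 0.15, adjusted p = 0.00107), as did Irf3 (-1.55 ± 0.26, adjusted p = 0.00577), which was low in all libraries, with 2.94 and 4.67 TPM with IFNb before LPS, against 15.4 and 10.7 TPM with LPS alone. Irf1, Ifnar1 and Ifnar2 did not pass, at 0.11 ± 0.11, -0.21 ± 0.09 and -0.16 ± 0.10.

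Proinflammatory cytokines moved in both directions. Of 27 tested, 7 rose and 9 fell, with a median of -0.07. Tnf, the early inflammatory cytokine, had 1284 and 1369.6 TPM in LPS+IFNb macrophages, against 2238 and 1925 TPM in LPS macrophages (-0.65 ± 0.10, adjusted p = 0.00486). Il1b, which encodes pro-IL-1 beta, had 2093 and 2152 TPM with IFNb before LPS, against 6242 and 5628 TPM with LPS alone (-1.48 ± 0.26, adjusted p = 0.00678). Il1a, which encodes IL-1 alpha, had 1155 and 1069.9 TPM with IFNb before LPS, against 2719 and 2145 TPM with LPS alone (-1.12 ± 0.15, adjusted p = 0.00241). All 3 were lower in both LPS+IFNb libraries and far above saline, where Tnf was at 7.06 and 6.69 TPM and Il1b at 5.28 and 7.06 TPM. The difference of Tnf was -0.39 with median-ratio scaling (adjusted p = 0.0977) and did not pass there, and its adjusted p over the alternatives ran from 0.00294 to 0.0977. The fall of Il1b was -1.22 with median-ratio scaling and passed there (adjusted p = 0.0142, with a range over the alternatives of 0.00425 to 0.0424).

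The IL-12 family divided by subunit. Il23a fell as given above. Il12b, shared by IL-12 and IL-23, had 7.43 and 29.8 TPM with IFNb before LPS, against 130.5 and 54.2 TPM with LPS alone. Its libraries differed several-fold within each group. Il12a, the p35 subunit of IL-12, had 21.8 and 26.999 TPM with IFNb before LPS, against 63.5 and 42.8 TPM with LPS alone (-1.07 ± 0.28, adjusted p = 0.0256). The difference of Il12a was -0.82 with median-ratio scaling (adjusted p = 0.0627), -0.92 without LPS+IFNb replicate 1 (adjusted p = 0.127), -1.22 without LPS+IFNb replicate 2 (adjusted p = 0.0627) and -0.79 without LPS replicate 1 (adjusted p = 0.133) and did not pass there, and its adjusted p over the alternatives ran from 0.0203 to 0.343. Il27, the p28 subunit of IL-27, rose instead, with 404 and 459.8 TPM with IFNb before LPS, against 224 and 197 TPM with LPS alone (1.03 ± 0.18, adjusted p = 0.00684). Il6, the acute-phase cytokine, had 269 and 205 TPM with IFNb before LPS, against 131 and 129 TPM with LPS alone (0.84 ± 0.25, adjusted p = 0.0413). The difference of Il6 was 0.65 without LPS+IFNb replicate 1 (adjusted p = 0.194), 1.04 without LPS+IFNb replicate 2 (adjusted p = 0.0635), 0.86 without LPS replicate 1 (adjusted p = 0.131) and 0.83 without LPS replicate 2 (adjusted p = 0.139) and did not pass there, and its adjusted p over the alternatives ran from 0.0138 to 0.205.

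Several cytokines that act on lymphocytes rose. Il15, a survival factor of NK cells and memory T cells, had 198 and 181 TPM with IFNb before LPS, against 69.7 and 74.2 TPM with LPS alone (1.38 ± 0.09, adjusted p = 0.000193). Il18, the precursor of an inducer of interferon gamma, had 113 and 126 TPM with IFNb before LPS, against 45.6 and 31.2 TPM with LPS alone (1.63 ± 0.19, adjusted p = 0.00149). Tnfsf10, the death ligand TRAIL, had 53.5 and 60.5 TPM with IFNb before LPS, against 5.77 and 4.21 TPM with LPS alone (3.29 ± 0.15, adjusted p = 7.32e-05). With IFNb alone the levels were 90.6 and 86.7 TPM for Il15, 111 and 109.7 TPM for Il18 and 144 and 155 TPM for Tnfsf10. Falls of Lif (-0.77 ± 0.18) and Csf2 (-0.62 ± 0.15) and a rise of Csf3 (1.47 ± 0.39) were each lost in several alternatives. The difference of Lif was -0.52 with median-ratio scaling (adjusted p = 0.0849), -0.76 without LPS+IFNb replicate 1 (adjusted p = 0.0826), -0.78 without LPS+IFNb replicate 2 (adjusted p = 0.0737) and -0.55 without LPS replicate 1 (adjusted p = 0.0979) and did not pass there, and its adjusted p over the alternatives ran from 0.0132 to 0.0979. The difference of Csf2 was -0.38 with median-ratio scaling (adjusted p = 0.14), -0.49 with upper-quartile scaling (adjusted p = 0.064), -0.47 without LPS+IFNb replicate 2 (adjusted p = 0.115), -0.63 without LPS replicate 1 (adjusted p = 0.098) and -0.62 without LPS replicate 2 (adjusted p = 0.102) and did not pass there, and its adjusted p over the alternatives ran from 0.015 to 0.207. The difference of Csf3 was 1.07 without LPS+IFNb replicate 1 (adjusted p = 0.15) and 0.94 without LPS replicate 1 (adjusted p = 0.12) and did not pass there, and its adjusted p over the alternatives ran from 0.0176 to 0.15. With 1 of the 4 libraries left out, 5 to 6 of the list rose and 4 to 8 fell, and with median-ratio scaling 8 rose and 4 fell.

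Several cytokine inhibitors rose, and others fell or did not pass. Il10, the main anti-inflammatory cytokine of macrophages, had 159 and 168 TPM in LPS+IFNb macrophages, against 28.3 and 23.2 TPM in LPS macrophages (2.63 ± 0.13, adjusted p = 9.94e-05). Il1rn, the secreted antagonist of the IL-1 receptor, had 5377 and 5100.2 TPM with IFNb before LPS, against 1580.5 and 1737 TPM with LPS alone (1.66 ± 0.14, adjusted p = 0.000463). With Il1b at 2093 and 2152 TPM in LPS+IFNb macrophages and 6242 and 5628 TPM in LPS macrophages, Il1rn was above Il1b on this per-length scale in both LPS+IFNb libraries and below it in both LPS libraries. Il18bp rose together with Il18, as given above. The checkpoint ligand Cd274, or PD-L1, had 626 and 648 TPM with IFNb before LPS, against 308 and 329.5 TPM with LPS alone (0.996 ± 0.07, adjusted p = 0.00027). Il13ra1, a receptor chain for IL-4 and IL-13, had 125 and 116 TPM with IFNb before LPS, against 30.5 and 35.3 TPM with LPS alone (1.84 ± 0.11, adjusted p = 0.000156). Vsir, the checkpoint protein VISTA, fell, with 31.3 and 32.1 TPM with IFNb before LPS, against 84.3 and 84.6 TPM with LPS alone (-1.38 ± 0.10, adjusted p = 0.000263). Of 19 genes on the list of anti-inflammatory cytokines and decoys, 7 rose and 3 (1 to 2 without 1 library) fell, with a median of 0.53.

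**Figure D2:**
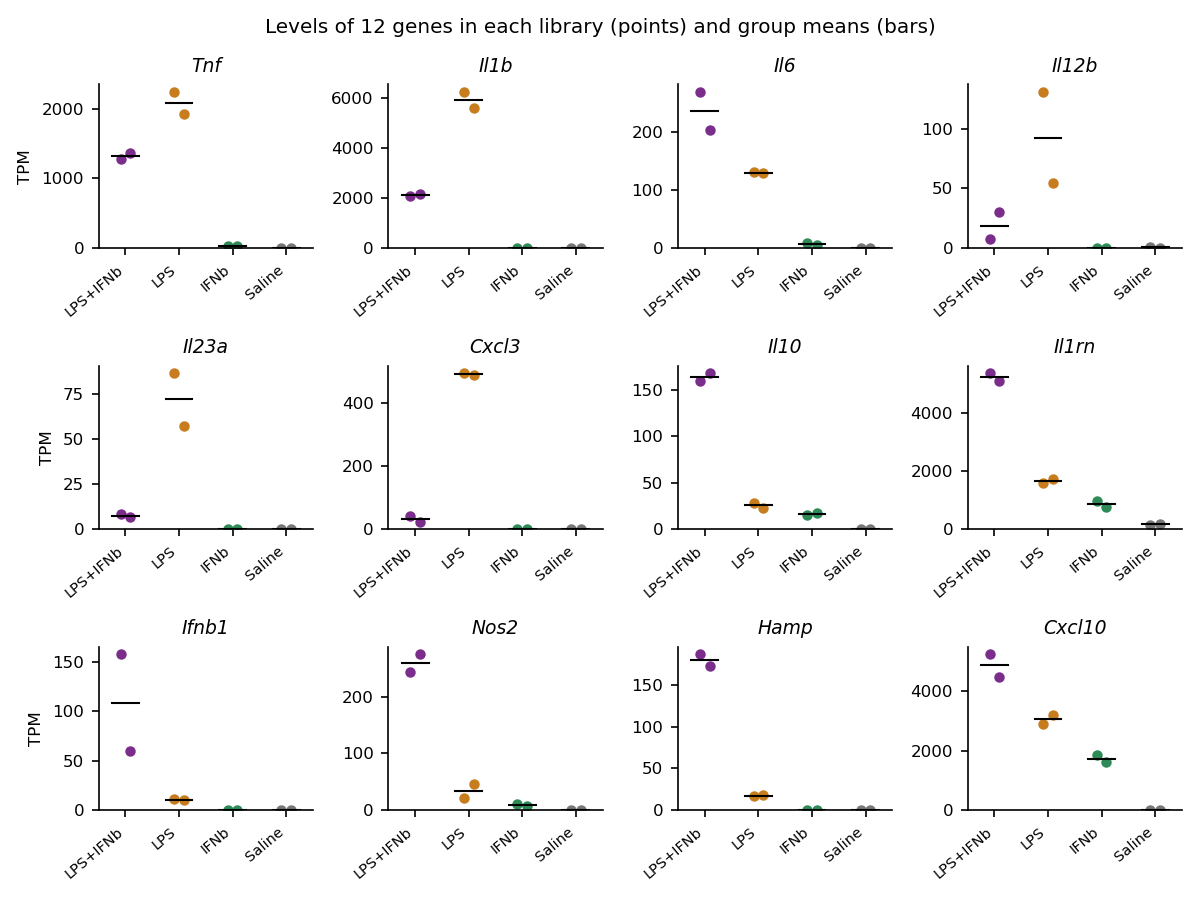
TPM of 12 genes in each library (points) with the group mean (bars) for LPS+IFNb, LPS, IFNb and saline, each panel on its own axis from 0. Tnf, Il1b, Il12b, Il23a and Cxcl3 were lower in both LPS+IFNb libraries than in both LPS libraries, and the other 7 genes were higher in both.

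Neutrophil chemokines fell in part and monocyte chemokines divided. Of 5 neutrophil chemokines tested, 4 (2 to 4 without 1 library) fell, with a median of -1.23. Beside Cxcl3, Cxcl1 had 303 and 207 TPM with IFNb before LPS, against 761 and 686 TPM with LPS alone (-1.52 ± 0.19, adjusted p = 0.00182). Cxcl2 had 1071 and 841 TPM with IFNb before LPS, against 2094 and 1612 TPM with LPS alone (-0.95 ± 0.21, adjusted p = 0.0144). The difference of Cxcl2 was -0.69 with median-ratio scaling (adjusted p = 0.0583), -0.78 without LPS+IFNb replicate 2 (adjusted p = 0.0782) and -0.76 without LPS replicate 1 (adjusted p = 0.0798) and did not pass there, and its adjusted p over the alternatives ran from 0.00768 to 0.0798. Among the ligands of CXCR3, which draw activated T and NK cells, Cxcl10 had 5240.5 and 4489.9 TPM with IFNb before LPS, against 2901 and 3206 TPM with LPS alone (0.67 ± 0.12, adjusted p = 0.007). Cxcl11 had 24.3 and 18.9 TPM with IFNb before LPS, against 6.51 and 7.41 TPM with LPS alone (1.498 ± 0.24, adjusted p = 0.00453). Cxcl9 did not pass, with 12.99 and 22.7 TPM with IFNb before LPS, against 8.56 and 3.27 TPM with LPS alone (1.51 ± 0.52, adjusted p = 0.0634).

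Of 18 CC and other chemokines, 5 (3 to 5 without 1 library) rose and 7 (2 to 5 without 1 library, 4 with upper-quartile scaling) fell, and with median-ratio scaling 5 rose and 3 fell. Beside Ccl8 and Ccl12, the CCR2 ligands Ccl2 and Ccl7 were higher. Ccl2 had 2656 and 1853 TPM with IFNb before LPS, against 1115 and 1356 TPM with LPS alone (0.85 ± 0.21, adjusted p = 0.0204). Ccl7 had 1921 and 1395 TPM with IFNb before LPS, against 449 and 493 TPM with LPS alone (1.80 ± 0.39, adjusted p = 0.0135). The difference of Ccl2 was 0.59 without LPS+IFNb replicate 1 (adjusted p = 0.0913) and 0.71 without LPS replicate 1 (adjusted p = 0.105) and did not pass there, and its adjusted p over the alternatives ran from 0.00915 to 0.105. The difference of Ccl7 was 1.57 without LPS+IFNb replicate 1 (adjusted p = 0.0779), 1.73 without LPS replicate 1 (adjusted p = 0.0667) and 1.87 without LPS replicate 2 (adjusted p = 0.055) and did not pass there, and its adjusted p over the alternatives ran from 0.00436 to 0.0779. Ccl22, a ligand of the CCR4 receptor of regulatory T cells, fell, with 12.3 and 20.4 TPM with IFNb before LPS, against 60.9 and 71.4 TPM with LPS alone (-1.99 ± 0.26, adjusted p = 0.00216), and so did Ccl9, with 1837 and 1735 TPM with IFNb before LPS, against 5489 and 5137 TPM with LPS alone (-1.57 ± 0.10, adjusted p = 0.000174). Ccl3 and Ccl5, chemokines at high levels, differed by less. Ccl3 had 3193 and 2718 TPM with IFNb before LPS, against 4453 and 4616 TPM with LPS alone (-0.62 ± 0.12, adjusted p = 0.00939). Ccl5 did not pass, with 2349.7 and 2549 TPM with IFNb before LPS, against 2887 and 2741 TPM with LPS alone (-0.20 ± 0.07, adjusted p = 0.0767). The difference of Ccl3 was -0.36 with median-ratio scaling (adjusted p = 0.102), -0.51 without LPS+IFNb replicate 2 (adjusted p = 0.0531) and -0.60 without LPS replicate 2 (adjusted p = 0.0526) and did not pass there, and its adjusted p over the alternatives ran from 0.00637 to 0.102.

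Chemoattractant receptors moved in both directions. Of 19 chemoattractant receptors, 9 (5 to 7 without 1 library) rose and 3 fell. P2ry14, a receptor for UDP-glucose, had 96.9 and 110.5 TPM with IFNb before LPS, against 21.7 and 14.2 TPM with LPS alone (2.49 ± 0.20, adjusted p = 0.000415). C3ar1, the receptor of complement C3a, had 548 and 569 TPM with IFNb before LPS, against 243 and 216 TPM with LPS alone (1.28 ± 0.09, adjusted p = 0.000256). Fpr1 and C5ar1 fell. Fpr1, the formyl peptide receptor, had 8.73 and 5.82 TPM with IFNb before LPS, against 31.9 and 41.4 TPM with LPS alone (-2.20 ± 0.24, adjusted p = 0.00121). C5ar1, the C5a receptor, had 180.1 and 141 TPM with IFNb before LPS, against 340.2 and 342 TPM with LPS alone (-1.09 ± 0.13, adjusted p = 0.0015). Of 35 cytokine receptors, 11 rose and 6 (3 to 5 without 1 library, 3 with median-ratio scaling) fell. Il15ra, which presents IL-15 to lymphocytes, rose (1.34 ± 0.14, adjusted p = 0.000965), and Csf1r, the receptor of the macrophage growth factor CSF1, fell (-0.69 ± 0.08, adjusted p = 0.00171).

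Genes for sensing LPS moved in both directions. Of 30 TLR4 sensors, adaptors and kinases, 5 rose and 12 fell, with a median of -0.36. With median-ratio scaling 6 rose and 5 fell, and with 1 of the 4 libraries left out 6 to 9 fell. Cd14, the co-receptor that hands LPS to TLR4, had 719.6 and 514 TPM in LPS+IFNb macrophages, against 1564 and 1829 TPM in LPS macrophages (-1.47 ± 0.25, adjusted p = 0.00561). Tlr4 itself was low and rose, with 21.9 and 25.3 TPM with IFNb before LPS, against 12.2 and 10.6 TPM with LPS alone (0.99 ± 0.13, adjusted p = 0.00256). Irak3, the inhibitory kinase-like protein IRAK-M, fell, with 17.02 and 13.8 TPM with IFNb before LPS, against 50.2 and 49.5 TPM with LPS alone (-1.64 ± 0.13, adjusted p = 0.000376), and so did Irak1, the kinase that relays the MyD88 signal (-0.90 ± 0.12, adjusted p = 0.0027), Ikbkb, the catalytic IKK beta (-1.13 ± 0.21, adjusted p = 0.00793), and Map3k7, the kinase TAK1 (-0.70 ± 0.10, adjusted p = 0.00332). Myd88 rose (0.66 ± 0.07, adjusted p = 0.00124). The TLR4-related surface protein Cd180 and its partner Ly86, known to restrain TLR4 in myeloid cells, rose together. Ly86 had 474 and 453 TPM with IFNb before LPS, against 96.8 and 90.2 TPM with LPS alone (2.30 ± 0.11, adjusted p = 9.12e-05). Cd180 had 415 and 480.1 TPM with IFNb before LPS, against 151 and 115 TPM with LPS alone (1.75 ± 0.16, adjusted p = 0.000643).

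Most NF-kB genes did not pass. Of 30 subunits, inhibitors and targets, 1 (0 to 1 without 1 library, 3 with median-ratio scaling, 2 with upper-quartile scaling) rose and 10 (5 with upper-quartile scaling) fell. Over all genes 10.8% rose and 24.1% fell. The list median was -0.12, against -0.22 over all genes, and 0.14, against -0.02, with median-ratio scaling. With that scaling 3 fell, and with 1 of the 4 libraries left out 2 to 5 fell. Icam1, the adhesion molecule, had 303 and 399 TPM with IFNb before LPS, against 831 and 762 TPM with LPS alone (-1.19 ± 0.14, adjusted p = 0.00169). Sqstm1, the autophagy receptor p62, had 571 and 652 TPM with IFNb before LPS, against 1219 and 1032 TPM with LPS alone (-0.88 ± 0.11, adjusted p = 0.00174). Nfkbia, the inhibitor IkB alpha, had 984 and 975 TPM with IFNb before LPS, against 1364 and 1530.2 TPM with LPS alone (-0.56 ± 0.12, adjusted p = 0.0148). Tnfaip3, the ubiquitin-editing inhibitor A20, had 561 and 644 TPM with IFNb before LPS, against 806 and 819 TPM with LPS alone (-0.43 ± 0.13, adjusted p = 0.0376). The difference of Nfkbia was -0.30 with median-ratio scaling (adjusted p = 0.139), -0.57 without LPS+IFNb replicate 1 (adjusted p = 0.0666), -0.55 without LPS+IFNb replicate 2 (adjusted p = 0.0672) and -0.48 without LPS replicate 2 (adjusted p = 0.0833) and did not pass there, and its adjusted p over the alternatives ran from 0.00907 to 0.139. The difference of Tnfaip3 was -0.18 with median-ratio scaling (adjusted p = 0.291), -0.30 with upper-quartile scaling (adjusted p = 0.0838), -0.34 without LPS+IFNb replicate 1 (adjusted p = 0.179), -0.53 without LPS+IFNb replicate 2 (adjusted p = 0.0596), -0.45 without LPS replicate 1 (adjusted p = 0.119) and -0.42 without LPS replicate 2 (adjusted p = 0.134) and did not pass there, and its adjusted p over the alternatives ran from 0.0266 to 0.291.

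Several feedback phosphatases and the decay factor Zfp36 rose. Of 36 SOCS, DUSP and other feedback inhibitors, 11 rose and 4 (1 to 3 without 1 library, 2 with either other scaling) fell. Dusp1, the phosphatase that switches off p38, had 272 and 303 TPM with IFNb before LPS, against 155 and 153 TPM with LPS alone (0.90 ± 0.12, adjusted p = 0.00219). Dusp2 had 245 and 259.8 TPM with IFNb before LPS, against 118 and 132 TPM with LPS alone (1.01 ± 0.14, adjusted p = 0.00271). Dusp5, which acts on ERK, had 39.01 and 36.3 TPM with IFNb before LPS, against 14.2 and 14.99 TPM with LPS alone (1.31 ± 0.12, adjusted p = 0.000639). Socs1, the inhibitor of JAK kinases, had 77.4 and 79.01 TPM with IFNb before LPS, against 43.8 and 45.5 TPM with LPS alone (0.80 ± 0.17, adjusted p = 0.0126), and Socs3 did not pass, at -0.31 ± 0.30. The difference of Socs1 was 0.81 without LPS+IFNb replicate 1 (adjusted p = 0.058), 0.78 without LPS+IFNb replicate 2 (adjusted p = 0.0607), 0.77 without LPS replicate 1 (adjusted p = 0.0638) and 0.82 without LPS replicate 2 (adjusted p = 0.0536) and did not pass there, and its adjusted p over the alternatives ran from 0.00218 to 0.12. Zfp36, or tristetraprolin, which directs the decay of Tnf and other cytokine mRNAs, had 596 and 563 TPM with IFNb before LPS, against 292 and 344 TPM with LPS alone (0.87 ± 0.15, adjusted p = 0.0063). Of 18 decay factors, 5 rose and 4 (1 to 2 without 1 library, 1 with median-ratio scaling) fell.

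Several immediate-early genes rose as well. Of 27 AP-1 and immediate-early genes, 12 rose and 1 fell, with a median of 0.39. Fos had 28.8 and 20.5 TPM with IFNb before LPS, against 9.33 and 8.86 TPM with LPS alone (1.33 ± 0.19, adjusted p = 0.00302). Egr1 had 33.6 and 37.6 TPM with IFNb before LPS, against 14.5 and 11.4 TPM with LPS alone (1.39 ± 0.24, adjusted p = 0.00566). Klf4, a factor of monocyte differentiation, had 11.4 and 9.21 TPM with IFNb before LPS, against 2.67 and 2.14 TPM with LPS alone (1.73 ± 0.26, adjusted p = 0.00404). Maff, a small Maf factor, fell (-1.06 ± 0.19, adjusted p = 0.00699).

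Most genes of antigen presentation on MHC class I rose, and most of those on MHC class II did not pass. Of 21 class I and peptide-loading genes, 14 rose and 1 (0 to 1 without 1 library, 0 with either other scaling) fell, with a median of 0.88. Tap1, a subunit of the transporter of peptides into the endoplasmic reticulum, had 643 and 674 TPM with IFNb before LPS, against 279 and 269 TPM with LPS alone (1.26 ± 0.07, adjusted p = 0.000123). Nlrc5, the activator of class I genes, had 194 and 204 TPM with IFNb before LPS, against 68.2 and 66.95 TPM with LPS alone (1.54 ± 0.16, adjusted p = 0.00107). H2-T23, the ligand of NKG2A, had 899.8 and 894 TPM with IFNb before LPS, against 350.4 and 331 TPM with LPS alone (1.40 ± 0.08, adjusted p = 0.000122). All 6 immunoproteasome and activator genes rose, from 0.71 ± 0.10 in Psme2 to 2.05 ± 0.08 in Psmb10. Psmb10 had 355 and 333 TPM with IFNb before LPS, against 83.4 and 81.2 TPM with LPS alone (2.05 ± 0.08, adjusted p = 3.92e-05). Of 31 constitutive proteasome genes, 3 rose and 12 (7 with upper-quartile scaling) fell, but 5 rose and 2 fell with median-ratio scaling, and 7 to 9 fell with 1 of the 4 libraries left out. Psmd1, a base subunit, fell under both scalings, with 41.5 and 38.2 TPM with IFNb before LPS, against 85.7 and 84.7 TPM with LPS alone (-1.08 ± 0.08, adjusted p = 0.000373), and Psma5 rose (1.19 ± 0.10, adjusted p = 0.000473). Of 12 class II genes, 1 (0 to 2 without 1 library, 0 with either other scaling) fell, which was H2-Eb2 (-0.75 ± 0.23, adjusted p = 0.0457), and the other 11 did not pass. The difference of H2-Eb2 was -0.59 with median-ratio scaling (adjusted p = 0.13), -0.67 with upper-quartile scaling (adjusted p = 0.0678), -0.44 without LPS+IFNb replicate 1 (adjusted p = 0.181), -0.66 without LPS replicate 1 (adjusted p = 0.18) and -0.84 without LPS replicate 2 (adjusted p = 0.108) and did not pass there, and its adjusted p over the alternatives ran from 0.0215 to 0.181.

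Costimulatory and adhesion genes moved apart. Of 28, 15 rose and 6 (3 to 4 without 1 library) fell, with a median of 0.70. Cd86, the ligand of CD28, had 163 and 164 TPM in LPS+IFNb macrophages, against 26.7 and 29.1 TPM in LPS macrophages (2.51 ± 0.15, adjusted p = 0.000172). Slamf8, a receptor of activated macrophages, had 304 and 323 TPM with IFNb before LPS, against 49.1 and 40.8 TPM with LPS alone (2.78 ± 0.11, adjusted p = 4.34e-05). Cd69, an early activation marker, had 322 and 347 TPM with IFNb before LPS, against 96.9 and 71.1 TPM with LPS alone (1.99 ± 0.15, adjusted p = 0.000361). Cd40, the receptor through which T cells license macrophages, had 697 and 917 TPM with IFNb before LPS, against 476 and 408 TPM with LPS alone (0.86 ± 0.16, adjusted p = 0.00761). Cd44, the hyaluronan receptor, fell, with 322 and 375 TPM with IFNb before LPS, against 938 and 876 TPM with LPS alone (-1.38 ± 0.10, adjusted p = 0.000277), as did the integrin gene Itgax (-0.91 ± 0.13, adjusted p = 0.00329).

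Many nucleic acid sensors and cell death genes rose. Of 33 other pattern and nucleic acid receptors, 17 rose and 4 (1 to 2 without 1 library) fell, and 10 to 13 rose with 1 of the 4 libraries left out. Tlr3, the sensor of double-stranded RNA, had 103 and 96.4 TPM with IFNb before LPS, against 10.9 and 9.34 TPM with LPS alone (3.18 ± 0.11, adjusted p = 3.81e-05). Tmem173, or STING, had 37.6 and 51.3 TPM with IFNb before LPS, against 13.3 and 11.9 TPM with LPS alone (1.72 ± 0.19, adjusted p = 0.00117). Ifi205, of the DNA-binding p200 family, had 2949 and 3128 TPM with IFNb before LPS, against 993 and 747 TPM with LPS alone (1.82 ± 0.14, adjusted p = 0.000376). Clec4d, a C-type lectin that senses mycobacterial glycolipid, fell (-1.18 ± 0.21, adjusted p = 0.00719).

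Of 35 inflammasome, caspase and cell death genes, 15 rose and 4 (1 to 2 without 1 library, 1 with either other scaling) fell. Casp1, which matures IL-1 beta and IL-18, had 475 and 448 TPM with IFNb before LPS, against 179.5 and 167 TPM with LPS alone (1.41 ± 0.09, adjusted p = 0.000196). Casp4, the intracellular LPS sensor caspase-11, had 438 and 415 TPM with IFNb before LPS, against 244 and 249 TPM with LPS alone (0.79 ± 0.08, adjusted p = 0.000977). Gsdmd, the pore former they cleave, had 125 and 121 TPM with IFNb before LPS, against 65.9 and 67.9 TPM with LPS alone (0.87 ± 0.07, adjusted p = 0.000467). Mlkl, the pore former of necroptosis, had 213 and 225 TPM with IFNb before LPS, against 40.3 and 37.3 TPM with LPS alone (2.47 ± 0.11, adjusted p = 6.42e-05). Nlrp3, the sensor that LPS primes, did not pass, with 127 and 143 TPM with IFNb before LPS, against 187 and 142 TPM with LPS alone (-0.27 ± 0.15, adjusted p = 0.208), and the survival factor Bcl2a1a, one of several near-identical copies, fell (-1.06 ± 0.16, adjusted p = 0.00421).

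Among effectors, nitric oxide synthase and hepcidin rose most. Nos2, the inducible nitric oxide synthase, had 244 and 275 TPM in LPS+IFNb macrophages, against 21.9 and 45.3 TPM in LPS macrophages (2.996 ± 0.32, adjusted p = 0.00112). Gch1, which makes its cofactor, had 123 and 121 TPM with IFNb before LPS, against 49.97 and 52.4 TPM with LPS alone (1.24 ± 0.08, adjusted p = 0.000242). Hamp, the iron-regulating peptide hepcidin, had 187 and 173 TPM with IFNb before LPS, against 16.5 and 18.5 TPM with LPS alone (3.29 ± 0.12, adjusted p = 3.89e-05). Hamp was at 0.269 and 0.239 TPM with IFNb alone and 0.519 and 0.481 TPM with saline, so that its highest level was found with both agents together. The itaconate-producing enzyme Acod1 and the prostaglandin synthase Ptgs2 did not pass, at 0.27 ± 0.11 and -0.36 ± 0.22. The oxidase subunit Ncf4 fell (-0.78 ± 0.09, adjusted p = 0.00161). Of the 32 effector genes 6 rose and 6 (3 to 6 without 1 library) fell, and 1 fell with median-ratio scaling.

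**Figure D3:**
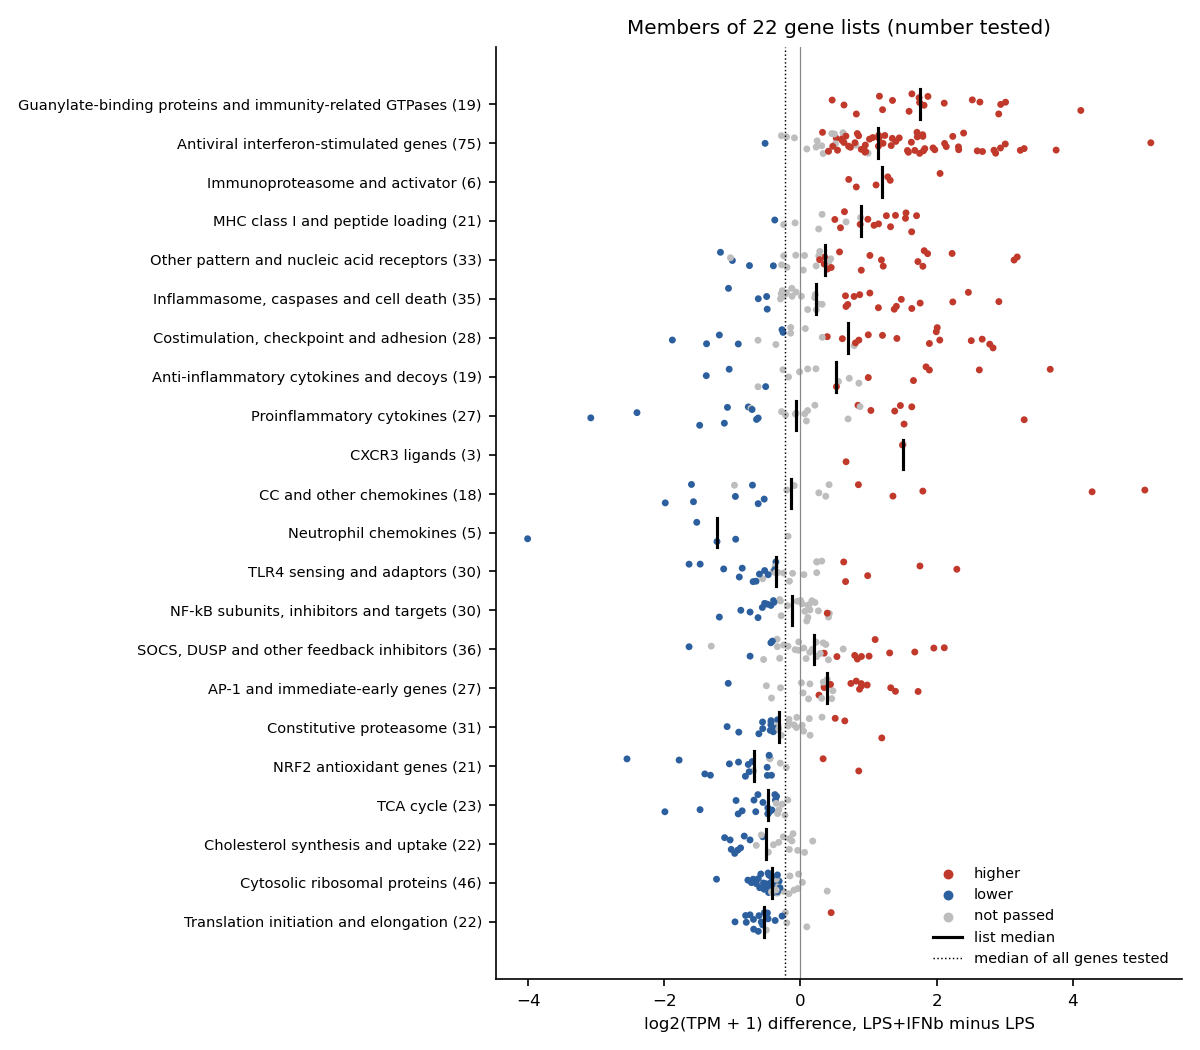
Difference of log2(TPM + 1), LPS+IFNb minus LPS, of each tested member (points, coloured by call) of 22 gene lists, with the list median (solid bars) and the median of all genes, -0.22 (dotted). The members of the guanylate-binding list all lie to the right of 0, and the median of the neutrophil chemokines is -1.23.

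Most antioxidant genes under NRF2 fell. Of 21 tested, 15 fell and 2 (1 to 2 without 1 library) rose, with a median of -0.69, and 8 fell and 2 rose with median-ratio scaling. Txnrd1, a thioredoxin reductase, had 132 and 148 TPM with IFNb before LPS, against 399 and 349 TPM with LPS alone (-1.41 ± 0.12, adjusted p = 0.000447). Srxn1, which repairs peroxiredoxins, had 36.7 and 26.8 TPM with IFNb before LPS, against 108 and 113 TPM with LPS alone (-1.78 ± 0.15, adjusted p = 0.000454). Fth1, the ferritin heavy chain and one of the most abundant transcripts, had 12434 and 11472 TPM with IFNb before LPS, against 19994 and 21910.2 TPM with LPS alone (-0.81 ± 0.09, adjusted p = 0.00124). Catalase, Cat, fell too (-1.04 ± 0.10, adjusted p = 0.000876), and Prdx6, a peroxiredoxin, rose (0.86 ± 0.15, adjusted p = 0.00628). With 1 of the 4 libraries left out, 11 to 13 of the list fell.

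Most genes on the TCA cycle list, which also holds cytosolic enzymes, fell with TPM as deposited. Of 23, 17 (8 with upper-quartile scaling) fell and the other 6 did not pass, with a median of -0.48, but 5 fell with median-ratio scaling and 9 to 10 with 1 of the 4 libraries left out. Idh1, the cytosolic isocitrate dehydrogenase, had 21.7 and 26.7 TPM with IFNb before LPS, against 107 and 91.5 TPM with LPS alone (-1.99 ± 0.13, adjusted p = 0.000186). Aco1, the cytosolic aconitase that also acts as an iron sensor, had 6.38 and 10.5 TPM with IFNb before LPS, against 24.8 and 24.4 TPM with LPS alone (-1.48 ± 0.21, adjusted p = 0.00281). Cs, or citrate synthase, had 49.7 and 50.9 TPM with IFNb before LPS, against 91.8 and 92.2 TPM with LPS alone (-0.86 ± 0.08, adjusted p = 0.000612). These 3 fell under median-ratio scaling too, at -1.74, -1.25 and -0.60. Among glycolysis genes the counts were small. Of 24, 3 (5 with median-ratio scaling) rose and 1 (1 to 3 without 1 library) fell, with Hk3, a hexokinase of myeloid cells, at 672 and 744 TPM with IFNb before LPS, against 279.8 and 259.6 TPM with LPS alone (1.39 ± 0.16, adjusted p = 0.00137).

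Falls in the respiratory chain and in ribosomal proteins depended on scaling. Nuclear respiratory chain genes fell in 10 (0 with median-ratio scaling, 3 with upper-quartile scaling) of 29 cases, mitochondrially encoded genes in 9 (0 with median-ratio scaling, 4 with upper-quartile scaling) of 13, and ribosomal protein genes in 30 (2 with median-ratio scaling, 9 with upper-quartile scaling) of 46, with medians of -0.26, -0.43 and -0.41. With median-ratio scaling the medians were -0.00, -0.17 and -0.16, and the calls left were 2 in ribosomal proteins, with the respiratory genes not passing. With 1 of the 4 libraries left out, 4 to 5 nuclear respiratory, 4 to 6 mitochondrial and 12 to 23 ribosomal protein genes fell. Translation factors fell in 17 of 22 cases and in 7 with median-ratio scaling. Eif4a2, an RNA helicase of initiation, had 105 and 102 TPM with IFNb before LPS, against 204 and 201 TPM with LPS alone (-0.96 ± 0.07, adjusted p = 0.000348).

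Lipid genes fell in part. Of 22 cholesterol synthesis genes, 9 fell, against 5 with median-ratio scaling and 3 to 8 with 1 of the 4 libraries left out. Srebf2, the factor that drives them, had 12.9 and 15.7 TPM with IFNb before LPS, against 30.96 and 28.6 TPM with LPS alone (-1.02 ± 0.18, adjusted p = 0.00679). Msmo1, a sterol oxidase, had 19.8 and 19.97 TPM with IFNb before LPS, against 37.2 and 37.7 TPM with LPS alone (-0.88 ± 0.09, adjusted p = 0.000926). Of 22 LXR targets and lipid-handling genes, 10 fell and 2 (4 with upper-quartile scaling) rose, with 4 falls and 4 rises under median-ratio scaling and 5 to 6 falls with 1 of the 4 libraries left out. The cholesterol exporters went apart. Abcg1 had 37.2 and 44.4 TPM with IFNb before LPS, against 12.4 and 10.7 TPM with LPS alone (1.73 ± 0.13, adjusted p = 0.000361). Abca1 had 23.7 and 23.03 TPM with IFNb before LPS, against 51.6 and 60.4 TPM with LPS alone (-1.22 ± 0.27, adjusted p = 0.0156). The difference of Abca1 was -1.24 without LPS+IFNb replicate 1 (adjusted p = 0.0668), -1.20 without LPS+IFNb replicate 2 (adjusted p = 0.069), -1.33 without LPS replicate 1 (adjusted p = 0.0514) and -1.11 without LPS replicate 2 (adjusted p = 0.0813) and did not pass there, and its adjusted p over the alternatives ran from 0.00756 to 0.0813. Fabp4, a fatty acid carrier, fell, with 315 and 337 TPM with IFNb before LPS, against 818 and 662 TPM with LPS alone (-1.17 ± 0.14, adjusted p = 0.00156).

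The antibody receptors Fcgr1 and Fcgr4 rose strongly. Fcgr1, the high-affinity receptor for IgG, had 487 and 491 TPM in LPS+IFNb macrophages, against 48.02 and 50.2 TPM in LPS macrophages (3.29 ± 0.09, adjusted p = 2.58e-05). Fcgr4, an activating receptor, had 487 and 499 TPM with IFNb before LPS, against 90.9 and 97.5 TPM with LPS alone (2.38 ± 0.08, adjusted p = 3.81e-05). With LPS alone both were near their saline levels, which were 62.2 and 54.3 TPM for Fcgr1 and 109 and 98.4 TPM for Fcgr4. The receptors Axl and Mertk, which take up dead cells, rose as well. Axl had 186 and 336 TPM with IFNb before LPS, against 61.9 and 38.4 TPM with LPS alone (2.33 ± 0.35, adjusted p = 0.00379). Mertk had 42.6 and 50.3 TPM with IFNb before LPS, against 18.5 and 17.1 TPM with LPS alone (1.33 ± 0.11, adjusted p = 0.000376). The paired receptors Pilra and Pilrb1 fell together, at -1.76 ± 0.27 and -1.86 ± 0.15. Of 34 Fc, scavenger and lectin receptors, 7 rose and 8 (4 to 6 without 1 library, 4 with median-ratio scaling) fell.

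Markers of other cells moved with some of these groups. Among the markers of monocytes and small peritoneal macrophages, 6 of 17 rose and 2 (1 with median-ratio scaling) fell. Plac8 had 204 and 271 TPM with IFNb before LPS, against 29.5 and 33.3 TPM with LPS alone (2.87 ± 0.20, adjusted p = 0.000247), and Ms4a4c, given above, is on the same list. Plac8 was also high with IFNb alone, at 295 and 398 TPM, against 24.7 and 20.5 TPM with saline. Among T and NK cell markers 4 of 18 rose and 1 (1 to 2 without 1 library) fell. Klrk1, or NKG2D, had 57.1 and 69.4 TPM with IFNb before LPS, against 6.31 and 4.61 TPM with LPS alone (3.32 ± 0.25, adjusted p = 0.000339). Gzmb, a cytotoxic granule protease, had 16.4 and 14.8 TPM with IFNb before LPS, against 1.19 and 2.17 TPM with LPS alone (2.66 ± 0.22, adjusted p = 0.000467). Gzma had 6.90 and 9.87 TPM, against 1.65 and 1.87 TPM, and Prf1 1.21 and 1.98 TPM, against 0.316 and 0.228 TPM. Lower were Ncr1, at 0.390 and 0.494 TPM, against 0.767 and 0.791 TPM, and Klrd1, at 1.32 and 0.525 TPM, against 5.05 and 1.82 TPM. The T cell marker Cd3e was at 1.19 and 1.28 TPM in LPS+IFNb macrophages, against 1.60 and 1.98 TPM in LPS macrophages. Among dendritic cell markers 3 of 14 rose and 2 (0 to 1 without 1 library, 1 with median-ratio scaling) fell, and their sum of 963 and 928 TPM with IFNb before LPS, against 334 and 350.5 TPM with LPS alone, was mostly the interferon-stimulated gene Bst2, with 859 and 814 TPM with IFNb before LPS, against 231 and 245 TPM with LPS alone. The part of cells other than macrophages in these results was not tested.

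Most genes that rose or fell with IFNb before LPS also did so with IFNb alone against saline, in 4 libraries that the comparison does not use. Of the 1400 genes that rose with IFNb before LPS, 1098 (78.4%) also rose with IFNb alone against saline, where 13.04% of all genes rose, and 51 fell. Of the 3129 genes that fell, 2540 (81.2%) also fell with IFNb alone, where 38.6% of all genes fell, and 33 rose. Falls depend on the scaling in both comparisons. With median-ratio scaling there were 1288 falls with IFNb before LPS and 1830 with IFNb alone. The genes in common were counted only with TPM as deposited. The size of the effect differed between the settings in 1036 genes (7.96%), being more positive with LPS in 457 (3.51%) and more negative in 579 (4.45%). The settings also differ in time, as cells were taken 8 h after IFNb with LPS and 4 h after it without LPS. In every difference of effects given below, the part of LPS and that of time cannot be told apart.

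For most interferon-stimulated genes the rise with IFNb was smaller with LPS than without it. The difference was negative and passed in 65 of 75 antiviral genes and in 16 of 19 guanylate-binding and immunity-related GTPases. Cxcl10 had 1848 and 1610.1 TPM with IFNb alone, against 1.95 and 2.31 TPM with saline, a difference of 9.11 ± 0.12, so that the effect with LPS was lower by 8.44 on the log2 scale (difference of effects -8.44 ± 0.17, adjusted p = 4.58e-06). Ifit1 had 2938 and 2424 TPM with IFNb alone, against 5.55 and 4.59 TPM with saline (difference of effects -8.17 ± 0.22, adjusted p = 1.29e-05), and Rsad2 7031 and 6725 TPM with IFNb alone, against 20.8 and 20.3 TPM with saline (difference of effects -6.57 ± 0.14, adjusted p = 4.58e-06). LPS alone had already raised these genes over saline, by 9.93 for Cxcl10, 7.96 for Ifit1 and 6.40 for Rsad2. The LPS+IFNb levels of Ifit1 and Rsad2, given above, lay below those with IFNb alone, and that of Cxcl10 above.

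In other genes the effect of IFNb was more positive with LPS than without it. Hamp had a difference of effects of 3.54 ± 0.17 (adjusted p = 6.9e-05). Dusp7, a phosphatase of ERK, had 53.98 and 49.6 TPM with IFNb before LPS, against 19.1 and 15.7 TPM with LPS alone and 10.2 and 7.44 TPM with IFNb alone, against 27.5 and 35.02 TPM with saline (difference of effects 3.25 ± 0.26, adjusted p = 0.000777). Ifnb1 had 2.88 ± 0.57 (adjusted p = 0.0321). Slamf1, a SLAM-family receptor that also binds bacterial porins, had 12.1 and 14.6 TPM with IFNb before LPS, against 1.16 and 1.34 TPM with LPS alone and 0.285 and 0.421 TPM with IFNb alone, against 0.360 and 0.305 TPM with saline (difference of effects 2.65 ± 0.24, adjusted p = 0.00123). Plagl1, a zinc-finger factor, had 39.6 and 63.3 TPM with IFNb before LPS, against 8.69 and 8.01 TPM with LPS alone and 0.731 and 0.617 TPM with IFNb alone, against 0.711 and 1.17 TPM with saline (difference of effects 2.65 ± 0.34, adjusted p = 0.00593). With 1 library left out, the difference for Ifnb1 did not pass without either Saline, LPS or IFNb library (2.19 to 3.58, with adjusted p over the alternatives from 0.00169 to 0.185).

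Opposite directions were found for Tnf. IFNb alone raised it, with 27.2 and 30.5 TPM with IFNb alone, against 7.06 and 6.69 TPM with saline (1.92 ± 0.10, adjusted p = 2.78e-05), and the difference after LPS was -0.65 ± 0.10, so that the difference of effects was -2.57 ± 0.15 (adjusted p = 0.000154). For Il23a and Cxcl3 the effect of IFNb was likewise more negative with LPS, by -3.13 ± 0.32 (adjusted p = 0.00216) and -2.97 ± 0.36 (adjusted p = 0.00513), with both genes near 0 TPM in the absence of LPS. With a pseudocount of 0.1 neither passed, at -3.32 (adjusted p = 0.0551) and -1.15 (adjusted p = 0.157). Il1b had -0.98 ± 0.37 and did not pass (adjusted p = 0.178), and without IFNb replicate 1 it was -1.39 (adjusted p = 0.0353). Il10 rose in both settings, and by less with LPS on the log2(TPM + 1) scale (difference of effects -1.18 ± 0.19, adjusted p = 0.0153). It had 15.7 and 16.9 TPM with IFNb alone, against 0.323 and 0.152 TPM with saline. Counted in TPM, its rise was larger with LPS, where its levels are given above. Without LPS replicate 1, either IFNb library or either LPS+IFNb library the difference for Il10 did not pass (-1.32 to -1.04, with adjusted p over the alternatives from 0.00453 to 0.0696).

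**Figure D4:**
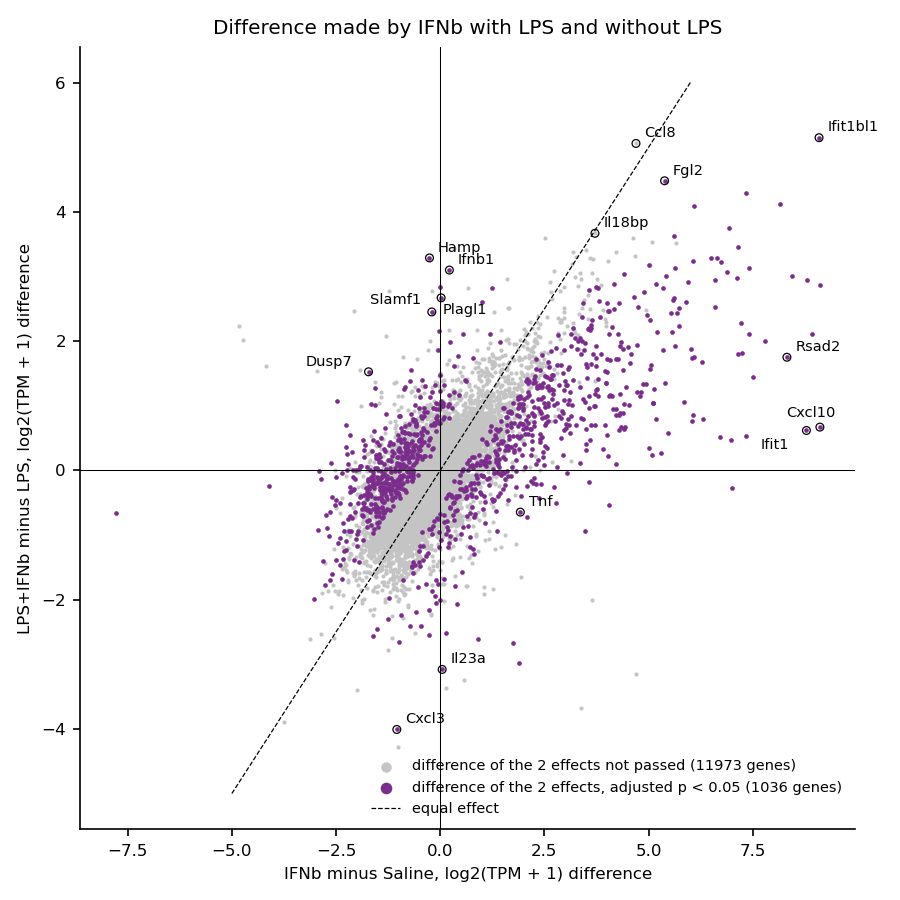
Difference made by IFNb in log2(TPM + 1) with LPS (vertical axis) and without LPS (horizontal axis) for 13009 genes. Cells were taken 8 h after IFNb with LPS and 4 h after it without LPS. The 1036 genes whose effects differed are coloured, and the line of equal effect is dashed. Cxcl10, Ifit1 and Rsad2 lie far to the right and close to the horizontal line of 0, and Hamp, Ifnb1 and Slamf1 lie high and close to the vertical line of 0.

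Matches to the ISRE were counted by direction and size of the difference, as a description with no test. The element was found within 250 bases before to 50 bases after the start in 4.22% of the 9180 tested genes with a promoter in the RefSeq table (387 genes), and in 3.44% of the table's 32851 promoters. Among risen genes 11.3% held it (116 of 1030), among those with a log2 difference of at least 1 15.8% (73 of 461), and among those of at least 2 24.3% (27 of 111). Among fallen genes 2.70% held it (65 of 2406). Of the guanylate-binding and immunity-related GTPases with a promoter in the table, 10 of 11 held it (90.9%), and of the antiviral genes 26 of 60 (43.3%). Of the 12 largest rises named above 8 had a promoter there, of which Ifit1bl1 held the element, and of the 12 largest falls 9 had one, of which Mapk14 held it. The interferon-linked element GAS, searched as TTCNNNGAA, was found in 10.2% of risen genes, in 17.1% of those with a log2 difference of at least 2 (19 of 111), in 7.56% of fallen and in 8.50% of all tested genes, and in 8.30% of the table's promoters. The kappa-B sequence was found in 8.74% of risen genes, in 14.4% of those with a log2 difference of at least 2 (16 of 111), in 6.57% of fallen and in 7.52% of all tested genes, and in 5.56% of the table's promoters.

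**Figure D5:**
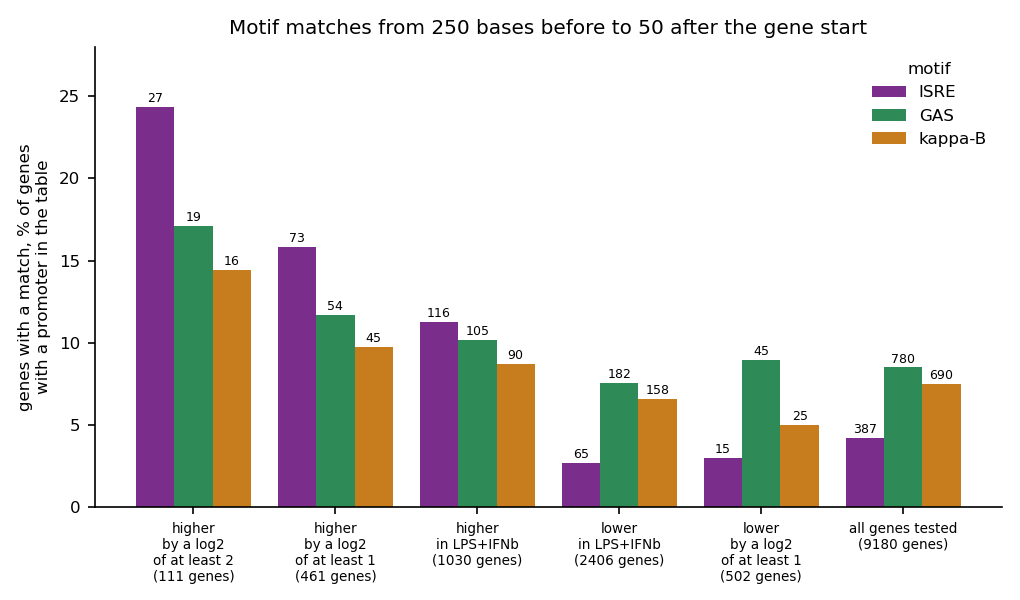
Share of genes with at least 1 match to the ISRE, GAS or kappa-B sequence in the promoter window, by size and direction of the difference, with the number of genes holding the match above each bar. The share with an ISRE was 24.3% among the largest rises, 2.70% among falls and 4.22% among all tested genes.

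In a few genes the share of single transcripts moved. Of 3775 genes with at least 20 TPM in each of the 4 libraries, 14 had a transcript whose share of the gene moved by at least 25 percentage points with no overlap between the groups. Sp110, an interferon-induced nuclear body protein, had 63.4% and 60.7% of its TPM in transcript Sp110-201 in LPS+IFNb macrophages, against 25.6% and 25.6% in LPS macrophages. Lipa, the lysosomal acid lipase, had 87.4% and 89.2% in Lipa-202 with IFNb before LPS, against 34.5% and 51.3% with LPS alone. Nlrc5 had 26.4% and 13.2% in Nlrc5-203, annotated as a retained intron, with IFNb before LPS, against 55.0% and 52.5% with LPS alone. The other 3 of the 6 largest shifts were in Pcbd2 (75.5 points), Dcun1d1 (37.1 points) and Ube2v2 (35.3 points), genes at low levels. At a minimum of 50 TPM 6 genes had such a shift, and with 1 of the 4 libraries left out 30 to 35 had. These shares are pseudoalignment estimates for overlapping transcripts and were not tested.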

How the data were processed

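RNA from 8 libraries of mouse peritoneal macrophages was measured by RNA-seq, with 2 libraries in each of 4 groups. The authors deposited a table of transcript TPM for each library. Per the submitters' processing notes, kallisto and the mm10 build were used, and no source used here gives its version, options or transcript set. TPM sums to a fixed total and keeps no read number, so the depth of each library is unknown.

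TPM was summed per gene with GENCODE M21 (GRCm38), which matched 86119 of 88198 transcripts. The other 2079 transcripts held 1.01% to 1.95% of TPM and were left out. Symbols shared by several genes numbered 29. The test was made on log2(TPM + 1) of the 13009 genes that reached 1 TPM in 2 or more libraries, a scale that understates changes of low genes. The 4 group means were fitted to all 8 libraries with limma 3.58.1 in R 4.3.3, with an intensity trend and Benjamini-Hochberg adjustment (4 residual and 2.54 prior degrees of freedom). The fit was also run on simulated data with normal noise and far fewer changed genes than were called here. That run had no shift in scaling and cannot speak to the effect of scaling. Every adjusted p printed comes from this fit or from an alternative of it.

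Genes named were the 12 largest rises and falls among called genes whose log2(TPM + 1) averaged 3 or more in the 4 libraries, with a symbol of no predicted gene, pseudogene, histone or antigen receptor segment, up to 8 members per list and direction, a set of genes fixed by name, and the 8 largest differences of the IFNb effect in each direction under the same limits. Of 415 such genes, 183 are described, taken from the lists for their roles. The members, 40 pathway lists and 11 marker lists were chosen with earlier results of these data known. Alternatives were median-ratio and upper-quartile scaling, rescaling over protein-coding nuclear genes, a pseudocount of 0.1, no filter or a minimum of 5 TPM, a fit to the compared groups only, a replicate block, no intensity trend, stricter thresholds, and each library left out. Promoters, from 250 bases before to 50 bases after the start, came from RefSeq (GRCm38.p6). A few genes are not reported here.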

Additional observations from a re-analysis of the deposited data

Results flagged for a closer look

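The effect of IFNb was compared between the settings with and without LPS, as the difference of log2 effects (LPS+IFNb minus LPS, less IFNb minus saline). Cells were taken 8 h after IFNb with LPS and 4 h after it without LPS, so LPS and time cannot be told apart. In 457 genes this difference passed the test with a more positive effect of IFNb when LPS followed, and in 579 with a more negative one. Beside those 2 counts, the genes named in the text for which it passed are given with its value.

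The most negative values among genes that rose with IFNb before LPS were -8.44 in Cxcl10, -8.17 in Ifit1, -6.82 in Mx1, -6.81 in Cmpk2, -6.57 in Rsad2, -6.52 in Gbp5, -6.25 in Ifit2, -6.05 in Isg15 and -5.80 in Cd69. Next in order stood -5.51 in Socs1, -5.43 in Ifi205, -5.35 in Ccl7, -5.21 in Ccl2, -4.61 in Usp18, -4.33 in Gbp7, -4.30 in Ifi47, -4.15 in Gbp3 and -4.04 in Iigp1. Values in the middle of these were -3.94 in Ifit1bl1, -3.70 in Ms4a4c, -3.64 in Gbp2, -3.53 in Il15ra, -3.52 in Irgm1, -3.50 in Zbp1, -3.43 in Cd40, -3.38 in Il27 and -3.36 in Tnfsf10. Lower in the order lay -3.23 in Irf7, -3.22 in Isg20, -3.17 in Ifi44, -3.04 in Ccl12, -3.04 in Gbp4, -2.92 in Phf11b, -2.90 in Batf2, -2.76 in Herc6 and -2.72 in Cd274. Further genes of this kind had -2.64 in Casp4, -2.51 in Tap1, -2.41 in Nlrc5, -2.41 in Gbp9, -2.35 in Pnp, -1.996 in Lipg, -1.91 in Cfb, -1.83 in Tlr3 and -1.73 in Gch1. Somewhat smaller differences were -1.71 in Il6, -1.60 in Il15, -1.57 in Mlkl, -1.56 in Bst2, -1.41 in Myd88, -1.30 in Upp1, -1.29 in Psmb10, -1.26 in Il18 and -1.18 in Il10. Then followed -0.90 in Epsti1, -0.90 in Fgl2, -0.90 in Psme2, -0.85 in Casp1, -0.82 in Samhd1, -0.81 in Il13ra1 and -0.67 in Nampt.

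Among genes that fell with IFNb before LPS, it was negative at -3.13 in Il23a, -2.97 in Cxcl3, -2.65 in Plet1, -2.57 in Tnf, -2.29 in Slc7a11, -2.10 in Ccl9, -1.96 in Ccl3, -1.94 in Clec5a, -1.91 in Icam1, -1.70 in Olr1 and -1.70 in Pilra. Smaller values were -1.68 in Cav1, -1.67 in Pilrb1, -1.60 in Fpr1, -1.10 in Lif, -0.98 in Cd44, -0.95 in Mapk14, -0.92 in Mmd, -0.82 in Tnfaip3, -0.80 in Nfkbia and -0.69 in Cs. For genes that did not pass in the comparison with LPS alone it was -5.02 in Acod1, -3.23 in Irf1 and -1.11 in Ccl5. Positive differences were found for risen genes at 0.95 in Abcg1, 1.23 in Fos, 1.62 in Dusp2, 2.11 in Procr, 2.65 in Slamf1, 2.65 in Plagl1, 2.88 in Ifnb1, 3.25 in Dusp7 and 3.54 in Hamp. For fallen genes positive values were 1.04 in Idh1, 1.13 in Vsir and 1.17 in C5ar1.

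The difference was lost in at least 1 of the 8 fits with a library left out for 28 of these 97 genes. They were Abcg1, C5ar1, Casp1, Cav1, Cfb, Clec5a, Cs, Fgl2, Fos, Fpr1, Idh1, Ifnb1, Il10, Il13ra1, Il18, Il6, Lif, Lipg, Mapk14, Mmd, Nampt, Nfkbia, Olr1, Pilra, Psme2, Samhd1, Tnfaip3 and Upp1. For Plet1, Il23a and Cxcl3 it was lost with a pseudocount of 0.1 and not with a library left out. The LPS+IFNb and LPS libraries enter both this difference and the comparison of the report, so it is not independent of it. With 2 libraries a group, no single library was tested as standing apart from its group.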

How the results depend on the processing

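For LPS+IFNb against LPS, 893 rises and 1435 falls passed an adjusted p of 0.01, and 660 rises and 662 falls had at least a 2-fold change. Falls numbered 1288 with median-ratio and 2076 with upper-quartile scaling, and leaving out 1 library gave 968 to 1049 rises and 1674 to 1924 falls. For IFNb against saline, the 2-fold minimum left 1058 rises and 1519 falls, median-ratio scaling 1830 falls, the stricter p 2970 falls, and leaving out 1 library 3339 to 4762 falls. For LPS against saline, median-ratio scaling gave 2601 rises and 2167 falls, the 2-fold minimum 973 and 2055, and the stricter p 3416 falls. A more positive effect of IFNb with LPS was found in 222 genes with median-ratio scaling, 294 without the filter, 95 at the stricter p, 284 at the 2-fold minimum and 129 to 453 with 1 library left out. A more negative one was found in 306 at the stricter p and 340 to 612 with 1 library left out. Isoform shifts numbered 6 at a minimum of 50 TPM and 30 to 35 with 1 library left out, where fewer libraries had to be separate. Searching only the bases before the start gave an ISRE in 3.67% of tested genes.

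The labels number the libraries of each group 1 and 2, but nothing says that a number marks a shared animal or day, and the deviations of same-numbered libraries correlated at -0.16 between LPS+IFNb and LPS and between -0.14 and 0.14 in the other pairs of groups. With the replicate block there were 1330 rises and 2810 falls, and 263 more positive and 465 more negative differences of the IFNb effect.

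Of 174 named genes that rose or fell, 155 kept direction and call under every alternative fit and 19 lost the call under at least 1, with no change of sign. Many genes were named for a large difference or a small adjusted p, so these counts do not describe all genes. Over all genes, falls numbered 3129 in the main fit and 1288 with median-ratio scaling. Signs turned in genes that had not passed. With median-ratio scaling the differences were 0.0584 in Ccl5, 0.0481 in Ifnar1 and 0.101 in Ifnar2. Irf1 ran from -0.000319 without LPS+IFNb replicate 2 to 0.22 without LPS+IFNb replicate 1. The causes of these changes were not tested. With 2 libraries a group and no read numbers, small changes and genes at low TPM are measured least well.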

Other observations

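Nucleotide and NAD metabolism also moved in both directions. Of 24 genes, 10 rose and 8 (5 to 7 without 1 library, 5 with median-ratio scaling) fell, with a median difference of -0.07. Upp1, a uridine phosphorylase, had 146 and 124 TPM with IFNb before LPS, against 16.6 and 18.3 TPM with LPS alone (2.88 ± 0.16, adjusted p = 0.000123). Pnp, a purine nucleoside phosphorylase, had 2245 and 2124 TPM with IFNb before LPS, against 543 and 559.9 TPM with LPS alone (1.98 ± 0.11, adjusted p = 0.000139). Nampt, the rate-limiting enzyme of NAD salvage, had 404 and 394 TPM with IFNb before LPS, against 160.2 and 144 TPM with LPS alone (1.39 ± 0.10, adjusted p = 0.000275). Nadk, which makes NADP from NAD, fell, with 37.6 and 36.5 TPM with IFNb before LPS, against 102 and 87.03 TPM with LPS alone (-1.33 ± 0.11, adjusted p = 0.000393). Of 32 complement and coagulation genes, 6 (3 to 6 without 1 library) rose and 3 (1 to 2 without 1 library) fell. Cfb, factor B of the alternative complement pathway, had 472 and 636 TPM with IFNb before LPS, against 128 and 107 TPM with LPS alone (2.22 ± 0.25, adjusted p = 0.00127), and Procr, the protein C receptor, had 71.9 and 69.98 TPM with IFNb before LPS, against 30.3 and 28.1 TPM with LPS alone (1.25 ± 0.11, adjusted p = 0.000594).

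Cell cycle genes rose in 8 and fell in 3 of 27 cases, with 4 to 5 rises when 1 of the 4 libraries was left out. Tpx2, a spindle assembly factor, had 48.8 and 50.4 TPM with IFNb before LPS, against 3.58 and 4.18 TPM with LPS alone (3.38 ± 0.11, adjusted p = 3.77e-05). Cdk4, which drives cells into S phase, fell, with 43.8 and 45.8 TPM with IFNb before LPS, against 87.7 and 110.0 TPM with LPS alone (-1.12 ± 0.12, adjusted p = 0.00105). Of 31 lysosome and phagocytosis genes, 6 rose and 5 (2 to 4 without 1 library, 1 with median-ratio scaling, 2 with upper-quartile scaling) fell, and Lamp2, a lysosomal membrane protein, had 770.0 and 765 TPM with IFNb before LPS, against 468 and 431 TPM with LPS alone (0.77 ± 0.10, adjusted p = 0.00185). Of 20 integrated stress response genes 2 (0 to 1 without 1 library) rose and 4 (2 to 3 without 1 library, 2 with either other scaling) fell. Herpud1, which acts in protein quality control of the endoplasmic reticulum, fell, with 5.58 and 4.91 TPM with IFNb before LPS, against 18.7 and 14.8 TPM with LPS alone (-1.499 ± 0.17, adjusted p = 0.0013). Hypoxia and angiogenic genes rose in 2 (5 with median-ratio scaling) and fell in 1 (0 without 1 library) of 20 cases, and Hbegf, a growth factor, had 21.5 and 17.4 TPM with IFNb before LPS, against 3.93 and 4.13 TPM with LPS alone (2.02 ± 0.16, adjusted p = 0.000365). Among 20 glucocorticoid-linked and FoxO-linked genes 3 (5 with median-ratio scaling) rose and 1 (0 to 2 without 1 library, 0 with median-ratio scaling) fell.

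Large peritoneal macrophage markers rose in 2 (0 to 2 without 1 library, 4 with median-ratio scaling) and fell in 4 (1 to 3 without 1 library) of 22 cases, the defining macrophage markers rose in 3 and fell in 3 of 10, and neutrophil markers rose in 1 and fell in 1 (0 without 1 library, 0 with either other scaling) of 10. Mast cell and basophil markers summed to 100.5 and 67.4 TPM with IFNb before LPS, against 65.4 and 93.1 TPM with LPS alone. Eosinophil markers summed to 19.3 and 20.9 TPM with IFNb before LPS, against 24.2 and 28.3 TPM with LPS alone. Mesothelial and stromal markers summed to 111 and 57.8 TPM with IFNb before LPS, against 57.9 and 132 TPM with LPS alone, and red blood cell markers to 4.89 and 7.28 TPM with IFNb before LPS, against 6.58 and 2.63 TPM with LPS alone. In these 4 lists the ranges of the groups overlapped for all but the eosinophil markers.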
